A study of Drosophila melanogaster with 24 samples.

Results

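Regions that were open only in wings lacking E93 were chosen by their presence in peak lists. The 3 peak lists of E93 mutant wings were merged wherever peaks shared at least 1 bp, which gave 37340 regions. Of these, 22090 held peaks of at least 2 mutant lists, and 519 of the 22090 overlapped no peak of any wild-type list. These 519 mutant-only regions made up 2.35% of the repeated regions, and the other 21571, which held both mutant and wild-type peaks, are called shared regions here. The peak calls themselves chose the regions, so peak height, length and stages with a peak are given as descriptions with no test.

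FAIRE-seq had been performed on wings of 3 stages: wandering larvae of the last instar (L3, 3LW in the labels), 24 h and 44 h after puparium formation (APF). The E93 mutant wings carried the E93-4 allele over the deficiency Df(3R)93FX2, with 2 replicates per stage, and the wild-type wings were of the strain w1118/y,w, hs-FLP; + ; +, with 3 replicates per stage. Each FAIRE replicate pooled at least 40 wings of female animals. E93 binding was measured at 24 h by ChIP-seq with an antibody to GFP, in 2 replicates of at least 700 wings from males and females in which a transposon insertion tags the E93 protein from 1 of the 2 gene copies (E93-GFSTF, strain yw/+; + ; Mi{MIC}Eip93F/+). The mutant and wild-type wings differed in strain as well as in E93, and these cannot be told apart. For each condition the authors deposited 1 list called on pooled replicates, so no value below carries a replicate error. Peak names in the mutant L3 list give 0 h APF where the labels give 3LW, and those in the wild-type L3 list call it the top 5000 peaks although it holds 39525. The labels were followed.

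FAIRE recovers DNA that is not crosslinked to nucleosomes, so reads pile up over promoters, enhancers and other regulatory elements in use. E93 (Eip93F) encodes a DNA-binding protein induced by the steroid hormone ecdysone, whose pulses time the passage from larva to pupa and adult in flies. It is known as a factor that specifies adult development during the pupal stage.

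The numbers of reads behind the lists differed between the genotypes. The reads were estimated from the background pileup, with an assumed extension of 125 bp per read and 120 Mb of sequence, or, in lists whose pileup had been scaled to the control, from the control's 10135847 reads and the step between pileup values. They numbered 5.44, 4.68 and 2.79 M for the mutant L3, 24 h and 44 h lists, against 9.57, 17.5 and 14.5 M for the wild-type ones. The mutant lists held 28216, 26239 and 22786 peaks and the wild-type lists 39525, 29731 and 28684. Read number therefore moved with genotype, and its part in the results was not tested. Coordinates are those of the peak lists, given as dm3 in the submitters' processing notes. No annotation of that build was used here, so regions are named by position and no gene is assigned.

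Repetition among the mutant lists and presence in the wild type went together. Of 15250 regions with a peak in 1 mutant list only, 3637, or 23.8% (exact 95% binomial interval 23.2% to 24.5%), had no wild-type peak. The share was 5.68% (5.19% to 6.21%) for the 8041 regions with peaks of 2 mutant lists and 0.441% (0.339% to 0.565%) for the 14049 regions with peaks of all 3. Over all merged mutant regions it was 11.1%. The same rule with the genotypes exchanged found 3774 wild-type-only regions, 14.4% of the 26294 regions repeated in wild-type lists, so the mutant-only set was the smaller one. It remained so with the 22786 strongest peaks of each list, where 1018 regions were mutant-only and 2074 wild-type-only. This setting equalises the number of peaks but not the reads or replicates behind the lists. The number of mutant-only regions rested in part on single lists. It was 2540 without the wild-type L3 list, 836 without the wild-type 24 h list and 219 without the mutant L3 list. The wild-type L3 list is the only FAIRE list whose deposited name does not state removal of PCR duplicates. Whether this played a part was not tested. Intervals cover counting error only.

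The mutant-only regions were low peaks. Pileup, the number of extended reads over the summit, had medians of 20, 20.5 and 15 in the L3, 24 h and 44 h lists for mutant-only regions, against 36, 35 and 29 for shared regions. Set within its own list, the median mutant-only peak stood at percentiles 19.7, 24.1 and 19.6 of the L3, 24 h and 44 h lists, against 63.7, 59.6 and 58.3 for the median shared peak. Ranked by fold enrichment in place of pileup, the mutant-only medians were 21.8, 22.2 and 19.0. Above percentile 50 of their list stood 40 of 369 mutant-only peaks in the L3 list, 46 of 452 in the 24 h list and 21 of 279 in the 44 h list. The best pileup ranks of a mutant-only region in these lists were 6495, 3779 and 1242. Peaks of all 3 lists were held by 11.9% of mutant-only and 64.8% of shared regions, and these heights were not compared at equal numbers of lists.

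**Figure D1:**
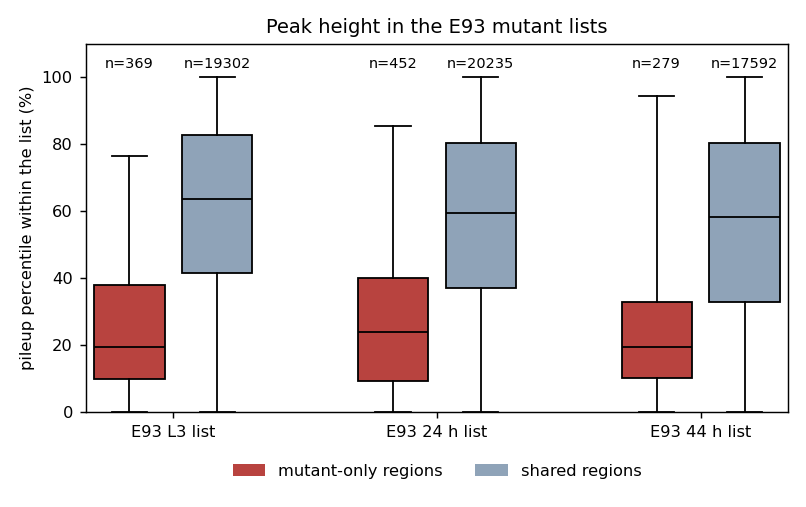
Pileup percentile within each E93 mutant peak list (vertical axis, %) for mutant-only regions (red) and shared regions (blue-grey) with a peak in that list; boxes give the quartiles and median, whiskers the lowest and highest region. The mutant-only medians lie between 19.6 and 24.1, below the shared medians of 58.3 to 63.7 in each list.

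The share of regions lacking a wild-type peak was smaller in each higher class of height. Each region was placed by its lowest pileup percentile over the lists in which it had a peak. Mutant-only regions were 209 of the 2849 regions up to percentile 10, or 7.34% (6.41% to 8.36%), and 175 of 4320 between 10 and 25, or 4.05% (3.48% to 4.68%). They were 120 of 6123 between 25 and 50, or 1.96% (1.63% to 2.34%), and 15 of 4870 between 50 and 75, or 0.308% (0.172% to 0.508%). Above percentile 75 there were 0 of 3928, with an exact upper limit of 0.0939% (3 counts of the total, an approximate limit for a count of 0, would be 0.0764%). Each region above percentile 75 in all mutant lists in which it had a peak thus also met a wild-type peak.

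**Figure D2:**
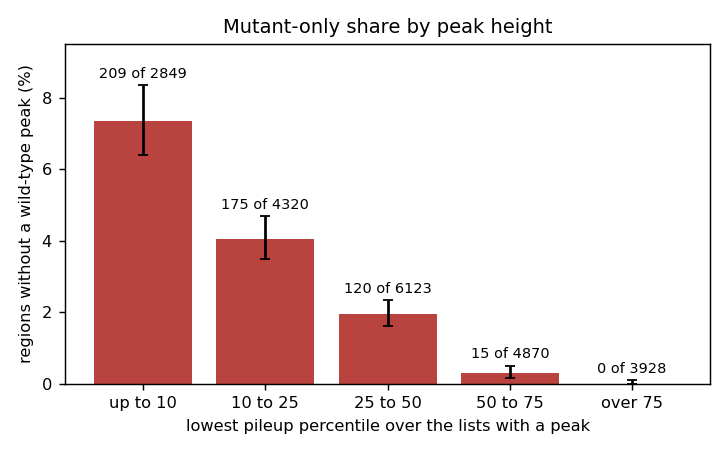
Share of repeated E93 mutant regions without a wild-type peak (vertical axis, %), by the lowest pileup percentile over the mutant lists with a peak (horizontal axis); bars give the share and error bars the exact 95% binomial interval. The share is 7.34% in the lowest class and 0 of 3928 in the highest.

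The number of stages at which the regions were open differed from that of shared regions. Of the mutant-only regions, 240, or 46.2% (41.9% to 50.6%), had peaks at L3 and 24 h but not at 44 h, against 18.4% of shared regions. Another 150, or 28.9% (25% to 33.0%), had peaks at 24 h and 44 h but not at L3, against 10.5%. Peaks at L3 and 44 h without 24 h were found in 67, or 12.9% (10.1% to 16.1%), against 6.19%. Peaks at all 3 stages were found in 62, or 11.9% (9.28% to 15.1%), against 64.8% of shared regions and 63.6% of all repeated regions. The 24 h list had a peak in 452 of the 519 mutant-only regions (87.1%), the L3 list in 369 (71.1%) and the 44 h list in 279 (53.8%). In shared regions the order of the lists was the same, at 93.8%, 89.5% and 81.6%. The 44 h list was also the mutant list with the fewest peaks, 22786, and the fewest estimated reads.

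Height moved with these patterns, and its part in them was not tested. Up to percentile 10, 9.09% of mutant-only and 38.2% of shared regions had peaks of all 3 lists. Between percentiles 10 and 25 the shares were 13.7% and 50.7%, and between 25 and 50 they were 15.0% and 56.4%. The order of the patterns depended on the threshold. With a −log10 q of at least 10 required in every list, wild-type lists included, the rule gave 143 regions. Of these, 19 lay in the 519 and 124 had weaker wild-type peaks that no longer counted. Of the 143, 51.7% had the 24 h and 44 h pattern. With that threshold in the mutant lists only, these 19 regions were left, and in 47.4% of them the peaks past it were those of 24 h and 44 h. Without the wild-type L3 list the pattern made up 12.2%.

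**Figure D3:**
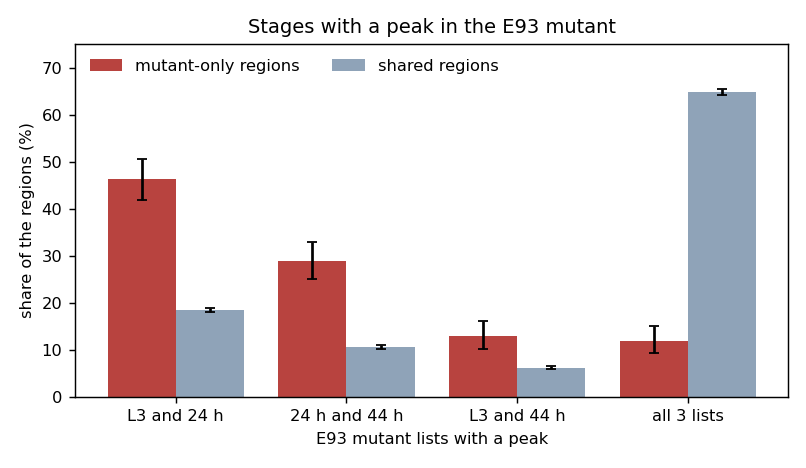
Share of regions (vertical axis, %) with peaks in each combination of E93 mutant lists (horizontal axis), for mutant-only regions (red) and shared regions (blue-grey); error bars are exact 95% binomial intervals. Peaks at all 3 stages are found in 11.9% of mutant-only and 64.8% of shared regions.

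Of the 62 mutant-only regions open at all 3 stages, 26 had their highest percentile at 24 h, 21 at L3 and 15 at 44 h. Their median percentiles in the L3, 24 h and 44 h lists were 29.4, 40.1 and 24.3. The highest of them in 1 list was chr2R:11137336-11137788, with pileups of 28 in the L3 list, 28 in the 24 h list and 86 in the 44 h list. Its fold enrichments were 3.64, 3.89 and 17.9. This region was near the middle of the first 2 lists, at percentiles 50.2 and 47.7, and high in the 44 h list, at percentile 94.4. The nearest wild-type peak of any stage lay 344 bp away and the nearest E93 ChIP-seq peak 2273 bp away.

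The other leading regions of this pattern had less uneven heights. The region with the best lowest percentile, chr3L:4612312-4612581, had pileups of 30, 43 and 32 in the L3, 24 h and 44 h lists, at percentiles 54.4, 67.7 and 62.3. Region chr3R:15599962-15600244 had pileups of 32, 49 and 23, with a fold enrichment of 8.52 at 24 h. Both were highest at 24 h, and the nearest wild-type peaks lay 521 and 3186 bp away.

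Among regions open at L3 and 24 h, chrX:17906155-17906506 led with a pileup of 52 at L3 and 35 at 24 h, and its summits at the 2 stages lay 6 bp apart. The pileup of 52 was the highest of any mutant-only region at L3. It was followed by chrX:8187795-8187963, with a pileup of 38 at L3 and 34 at 24 h, and chr3L:15041319-15041556, with 32 and 36. Across the 240 regions of this pattern the percentile was higher at L3 in 140 and higher at 24 h in 100.

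Among regions open at 24 h and 44 h, chr2R:5790097-5790434 had a pileup of 45 at 24 h and 35 at 44 h, and its lowest percentile, 65.6, was the highest of all 519. Region chr3R:13031000-13031334 had 38 and 31, and chr3L:14705478-14705900 had 47 and 30. These regions were wider than most, with lengths of 338, 335 and 423 bp. Across the 150 regions of this pattern the percentile was higher at 24 h in 98 and higher at 44 h in 52.

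Among regions open at L3 and 44 h but not called at 24 h, chrX:17616287-17616545 led with a pileup of 33 at L3 and 28 at 44 h. Next were chr3R:22880472-22880717, with 30 and 29, and chr2L:13643892-13644063, with 27 and 20. The last of these 3 stood below the middle of the 44 h list, at percentile 39.5.

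A stricter view of the same peaks is given by the −log10 q, the significance of a peak within its list. A value of at least 10 was reached in at least 1 list by 85 mutant-only regions, in at least 2 lists by 19 and in all 3 by 3. Counting peaks of any significance, 9 of the 19 had peaks at all 3 stages, 5 at 24 h and 44 h, 4 at L3 and 24 h, and 1 at L3 and 44 h. Their median length was 259 bp, 12 of them lay within 1000 bp of a wild-type peak, and their median distance to an E93 ChIP-seq peak was 6425 bp.

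Mutant-only regions were short and simple. Their median length was 210 bp (quartiles 174 and 264 bp), against 385 bp (263 and 572 bp) for shared regions. The longest, chr2R:18150283-18150926, measured 644 bp, with a pileup of 17 at L3 and 18 at 24 h and summits 348 bp apart. It was followed by chr2R:8817427-8818036, at 610 bp, and chr3R:22269402-22269996, at 595 bp. Only 9 mutant-only regions were longer than 500 bp. In 513 of the 519, or 98.8% (97.5% to 99.6%), each list contributed a single peak, against 88.3% of shared regions. Over the classes of height from low to high, the median lengths of mutant-only regions were 226, 198, 202 and 259 bp, against 282, 298, 337 and 459 bp for shared regions. Peaks of all 3 lists were merged in 11.9% of mutant-only and 64.8% of shared regions. Lengths and single peaks were not compared at equal numbers of lists.

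The summits of different stages fell close together. In mutant-only regions of 2 lists the summits lay a median of 29.0 bp apart, against 30.0 bp in shared regions of 2 lists. In regions of 3 lists the spread from first to last summit was 41.5 bp, against 41.0 bp. The summits lay within 50 bp of each other in 343 mutant-only regions, or 66.1% (61.8% to 70.2%), against 61.0% of shared regions. All these positions come from peaks that had to overlap to form a region.

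Most mutant-only regions lay beside wild-type open chromatin. The median distance to the nearest wild-type peak was 403 bp (quartiles 171.5 and 909 bp). In the 3637 mutant regions of 1 list without a wild-type peak it was 507 bp (203 and 1221 bp), so such closeness was not particular to mutant-only regions. A wild-type peak of some stage lay within 250 bp of 178 mutant-only regions, or 34.3% (30.2% to 38.6%), and within 1000 bp of 401, or 77.3% (73.4% to 80.8%). It was more than 5000 bp away from 15. The nearest peak belonged to the L3 list in 285 regions, to the 44 h list in 121 and to the 24 h list in 109, with 4 ties. The L3 list is also the longest, with 39525 peaks. In 163 mutant-only regions, or 31.4%, wild-type peaks lay within 1000 bp on both sides, against 27.3% of the 3637 mutant regions of 1 list without a wild-type peak. The 20 kb around a mutant-only region held a median of 23 wild-type peaks, counted over the 3 lists, against 20 around those regions of 1 list and 28 around a shared region, where the overlapping peaks are counted too. In 5 mutant-only regions it held none.

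At the edge of the rule, the 3 mutant-only regions closest to a wild-type peak were chr2L:14015801-14016165 at 4 bp, chr3R:13445079-13445311 at 5 bp and chr2L:3888237-3888468 at 9 bp. The pileups were 19 at L3 and 10 at 44 h in chr2L:14015801-14016165 and 15 at L3 and 17 at 24 h in chr3R:13445079-13445311. In chr2L:3888237-3888468 they were 22, 29 and 17 at the 3 stages. The shared regions with the smallest overlap were chr2L:5763953-5764108 and chr3R:20642362-20642593, each with 2 bp, and chrX:16334728-16334973 with 4 bp. Their highest pileups were 17, 27 and 26, against 19, 17 and 29 in the 3 mutant-only regions. With 3 regions on each side, heights at the edge of the rule cannot be compared in general. Small overlaps were few among shared regions, of which 26 overlapped a wild-type peak by at most 50 bp.

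Few mutant-only regions coincided with E93 binding. An E93 ChIP-seq peak overlapped 15 of the 519, or 2.89% (1.63% to 4.72%), against 6513, or 30.2%, of the shared regions. Over all repeated regions the share was 29.6% and over all merged mutant regions it was 19.3%. The rule itself lowers this share, because all but 360 of the 8477 ChIP-seq peaks overlapped a wild-type 24 h peak and mutant-only regions have none. In the 3356 shared regions that also lacked a wild-type 24 h peak, 75, or 2.23% (1.76% to 2.79%), overlapped a ChIP-seq peak, and the interval overlaps that of mutant-only regions. The share depended on which peaks counted. It was 11.4% without the wild-type 24 h list. With a −log10 q of at least 10 in every list it was 11.9% of 143, and the 17 regions with a ChIP-seq peak were all among the 124 outside the 519. With that threshold in the mutant lists only it was 0 of 19. Of the 360 ChIP-seq peaks without a wild-type 24 h peak, 13 met a mutant-only region and 187 met a mutant region of any kind.

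The distance to E93 binding was larger in mutant-only regions, with a median of 6384 bp (quartiles 2235 and 16342 bp), against 1628 bp (0 and 7874 bp) in shared regions. The rule itself raises this distance as well, since it leaves out regions at wild-type 24 h peaks, where most ChIP-seq peaks lie. Leaving out overlaps, the medians were 6734 and 4414 bp. A ChIP-seq peak lay within 10 kb of 328 mutant-only regions, or 63.2% (58.9% to 67.4%), against 79.0% of shared regions, and more than 50 kb away from 36, or 6.94%, against 2.30%. In the 3356 shared regions without a wild-type 24 h peak the median was 4793.5 bp. With a −log10 q of at least 10 in every list the median of the resulting 143 regions was 2152 bp. Over the 4 classes of height that held mutant-only regions, from low to high, their medians were 6923, 5832, 6915.5 and 5864 bp. Those of shared regions, wild-type 24 h peaks included, were 4451, 3054, 2057 and 550 bp. By pattern, the median was 8060 bp for L3 and 24 h, 5042 bp for 24 h and 44 h, 5984 bp for L3 and 44 h, and 4859 bp for all 3 stages.

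**Figure D4:**
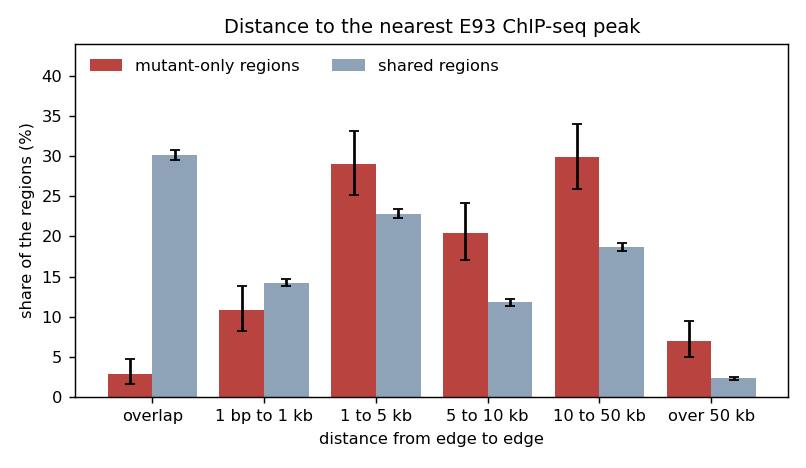
Share of mutant-only regions (red) and shared regions (blue-grey) (vertical axis, %) by distance to the nearest E93 ChIP-seq peak of 24 h wings (horizontal axis); error bars are exact 95% binomial intervals. Overlap is seen in 2.89% of mutant-only and 30.2% of shared regions, and distances over 50 kb in 6.94% and 2.30%. The rule leaves out regions at wild-type peaks, where most ChIP-seq peaks lie, and so lowers the overlap of mutant-only regions.

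The 15 mutant-only regions at a ChIP-seq peak each met a different one. They comprised 7 of the 240 regions open at L3 and 24 h, 7 of the 150 open at 24 h and 44 h, 0 of the 67 open at L3 and 44 h, and 1 of the 62 open throughout. For the 0 of 67, 3 counts of the total, an approximate limit for a count of 0, would be 4.48%. The ChIP-seq peaks of the 15 regions had a median fold enrichment of 2.59, against 3.01 over all 8477. They stood at percentiles between 0.655 and 83.7 of the ChIP-seq list by pileup. Of the 15 ChIP-seq peaks, 2 reached a wild-type 24 h peak as well, and 4 reached a wild-type peak of some stage.

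The highest of these in the mutant was chr3R:22269402-22269996. It had a pileup of 76 at 24 h, the highest of any mutant-only region at that stage, and of 19 at 44 h. The 24 h peak had a fold enrichment of 10.5 and a −log10 q of 51.9 and ranked 3779 of 26239. The ChIP-seq peak inside it, from 22269520 to 22269867, had a pileup of 40.9 and a fold enrichment of 2.21. The nearest wild-type peak lay 435 bp away. This region was high at 24 h and below the middle of the list at 44 h, at percentile 36.4, and had no L3 peak.

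By lowest percentile the leading region at a ChIP-seq peak was chr2R:7899855-7900102, with a pileup of 36 at L3 and 33 at 24 h. Its ChIP-seq peak, from 7900088 to 7900281, reached past the region and also overlapped a wild-type 24 h peak. Next came chr2L:16597640-16597816, with a pileup of 34 at 24 h and 19 at 44 h and a ChIP-seq fold enrichment of 3.08 over almost the same interval. Region chr3R:9212851-9213068 had a pileup of 27 at L3 and 23 at 24 h, and chr2R:20197413-20197614 had 27 at 24 h and 18 at 44 h. The ChIP-seq fold enrichment at these last 2 was 1.94 and 1.97.

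On 2R, 3 neighbouring mutant-only regions each held an E93 ChIP-seq peak. They lay within 2719 bp, at chr2R:939582-939807, chr2R:941061-941322 and chr2R:941729-942300. Their pileups were 26, 19 and 31 in the L3 list and 22, 16 and 21 in the 24 h list, and the last region also had a peak at 44 h, with a pileup of 14. The ChIP-seq fold enrichments were 4.01, 4.14 and 4.10, above the median of 3.01 of that list, with −log10 q of 12.7, 13.3 and 13.3. Wild-type peaks lay 1693, 1675 and 697 bp away. Of the 5 runs of 3 mutant-only regions within 10 kb of each other, this was the only one with a ChIP-seq peak.

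Most mutant-only regions had no other mutant-only region within 10 kb. The median distance to the nearest other one was 59.3 kb (quartiles 21.6 and 153.8 kb), against 0.53 kb among the 21571 shared regions. Such distances depend on the number of regions, and whether the 519 lay closer together than evenly scattered regions was not tested. Of the mutant-only regions, 438 had no other within 10 kb. The remaining 81 formed 33 pairs and 5 runs of 3, and no run was longer. The run on 3R from 11880705 to 11883585 held regions with peaks at L3 and 44 h, at 24 h and 44 h, and at L3 and 24 h, and the nearest E93 ChIP-seq peaks lay between 12043 and 14642 bp away. The run on 3L from 833353 to 841799 held 1 region of all stages and 2 of L3 and 44 h. In windows of 1 Mb the median was 4.0 mutant-only regions. The most was 11, in the window from 16 to 17 Mb of 3L and in that from 11 to 12 Mb of 3R, where they were 3.96% and 5.53% of the repeated regions. Windows with none numbered 5 of 122.

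The chromosomes contributed mutant-only regions in about equal proportion to their repeated regions, apart from chromosome 4. The share was 2.31% on 2L, 2.57% on 2R, 2.16% on 3L, 2.28% on 3R and 2.37% on X, and the intervals all include 2.35%. On chromosome 3, which carries the E93 alleles, it was 2.22% (1.94% to 2.53%), against 2.45% (2.18% to 2.74%) on the other chromosomes together. The numbers per Mb, up to the furthest peak of an arm, were between 3.80 on chromosome 4 and 5.20 on 2R. On chromosome 4, a small chromosome that is largely heterochromatic, 5 of 55 repeated regions were mutant-only, or 9.09% (3.02% to 20.0%), an interval that excludes 2.35%. With 5 regions this rests on few events, and the chromosome was 1 of 6 examined.

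**Figure D5:**
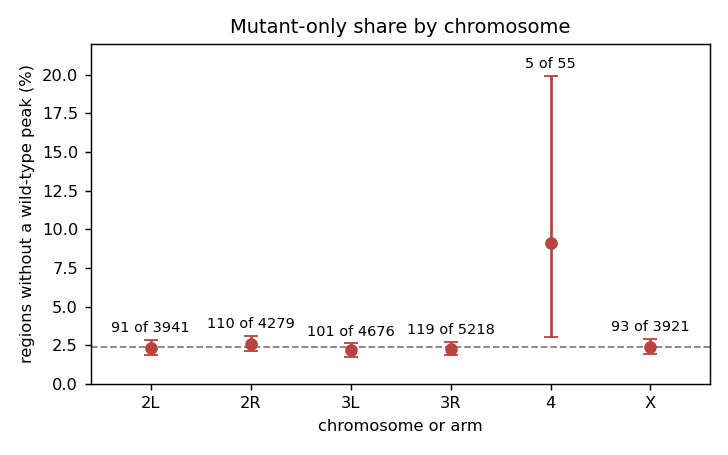
Share of repeated E93 mutant regions without a wild-type peak (vertical axis, %) on each chromosome or arm (horizontal axis); points give the share, error bars the exact 95% binomial interval, and the dashed line the 2.35% of all repeated regions. The large arms lie between 2.16% and 2.57%, and chromosome 4 at 9.09% with 5 of 55 regions.

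The 5 regions of chromosome 4, named after their values were seen, had a median lowest percentile of 28.8, against 9.91 to 14.8 on the other arms. Region chr4:1133609-1133842 had pileups of 27, 29 and 16 in the L3, 24 h and 44 h lists, and chr4:380776-380943 had 23, 19 and 17. Region chr4:416256-416530 had a pileup of 25 at L3 and 33 at 24 h, chr4:1051217-1051385 had 22 and 26, and chr4:1071953-1072180 had 22 at 24 h and 17 at 44 h. Region chr4:1071953-1072180 lay 18127 bp from the nearest wild-type peak, the farthest of all 519, and 212192 bp from the nearest E93 ChIP-seq peak. Region chr4:380776-380943 lay 14286 bp from a wild-type peak, and these 2 were among the 5 mutant-only regions with no wild-type peak in the surrounding 20 kb. The other 4 regions of chromosome 4 lay between 14770 and 197240 bp from the nearest E93 ChIP-seq peak.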

How the data were processed

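FAIRE-seq and ChIP-seq reads had been processed by the submitters, whose processing notes name Bowtie2 2.2.8, Picard 2.2.4, bedtools 2.25.0, MACS2 2015-06-03 and the build dm3. Replicates were pooled before peak calling, and the calling settings are not given in the sources used here. Each deposited list gives, as written by the authors' peak caller, the pileup (a coverage signal at the summit) and the fold enrichment (its ratio to the local background). The significance of each peak is deposited as −log10 p, and as −log10 q after adjustment within the list. Pileups were whole numbers in all 3 mutant lists and in the wild-type L3 list. They had been scaled in the wild-type 24 h and 44 h lists and the ChIP-seq list, so heights were compared as percentiles within a list.

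Mutant peaks were merged at 1 bp. Where a list had several peaks in a region the highest was used. Distances run from edge to edge. Regions named were the 3 leading ones of each stage pattern by lowest percentile, the 5 leading ones at a ChIP-seq peak, the 3 longest, the 3 nearest to each side of the rule and the 3 runs with most regions within 10 kb. The regions and rules were chosen with earlier results of these data known. With 1 list per condition no test was made, and shares carry exact (Clopper-Pearson) 95% intervals. Alternatives were 2 thresholds on −log10 q, equal list sizes, other criteria for a wild-type peak, leaving out lists, large arms only and other ranks.

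The deposited control holds 10135847 reads of genomic DNA from adult Oregon R females, whose mapping score per read, the authors' value, was not used. Its positions reach 28110227 on 3L, where the furthest peak ends at 24530519, so its positions were not compared with peaks. Fold enrichment, p and q may rest on control reads of other positions. RNA-seq was not analysed here. Interval functions were tested on simulated data. Python 3.11.15, numpy 2.4.6, pandas 2.3.3, scipy 1.17.1 and matplotlib 3.10.9 were used.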

Additional observations from a re-analysis of the deposited data

How the results depend on the processing

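No paired analysis was possible because the replicates of a condition were pooled into 1 list, and so none could be left out. Of 118 values under alternatives, 70 stayed within the 95% interval of the share reported, or within 1.5 times for numbers, distances and percentiles, and 48 did not. Fewer peaks or a wider margin lower a number by construction, and a shorter wild-type list raises it; otherwise the cause was not tested. The share on chromosome 3 stayed within its interval under all alternatives run, between 39.9% and 45.2%.

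With a −log10 q of at least 10 in all lists, 143 regions were mutant-only (1.21% of repeated regions; 19 of them in the 519), 8.39% of them with peaks of all 3 lists and 11.9% at a ChIP-seq peak, with a median distance of 2152 bp. With that threshold in the mutant lists only, 19 regions were left (0.160%), 15.8% with peaks of all 3 lists and 0.0% at a ChIP-seq peak, and 10643 regions were wild-type-only. At equal list sizes there were 1018 (5.12%), 15.6% with peaks of all 3 lists, and 2074 wild-type-only. With no wild-type peak allowed within 250 bp there were 341 (1.54%), and within 1000 bp 118 (0.534%), of which 15.3% had peaks of all 3 lists. Counting a wild-type overlap from 50% of the shorter interval gave 2.66%.

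Without the mutant L3 list 219 of the 16908 regions with peaks of both pupal mutant lists lacked a wild-type peak (1.30%). Without the wild-type L3 list there were 2540 (11.5%), 19.5% of them with peaks of all 3 lists. Without the wild-type 24 h list there were 836 (3.78%), of which 11.4% had a ChIP-seq peak, and without the wild-type 44 h list the share was 3.42%.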

Other observations

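Wild-type-only regions were found by the same rule with the genotypes exchanged, and no wild-type shared regions were measured beside them. Of the 3774, 513, or 13.6%, had peaks of all 3 wild-type lists, their median length was 238 bp, and the median of their lowest pileup percentile was 22.2. An E93 ChIP-seq peak overlapped 212 of them, or 5.62% (exact 95% binomial interval 4.90% to 6.40%). The 3637 mutant regions of 1 list without a wild-type peak lay a median of 507 bp from the nearest wild-type peak, and 53 of them had no wild-type peak in the surrounding 20 kb.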
